A study of Mus musculus with 6 samples.

Results

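The ISG15 conjugation pathway was followed in monocytes with and without the type I IFN receptor chain IFNAR1, by RNA-seq. The genes were taken by name for their role in the pathway, with earlier results of these data known: *Isg15*, *Uba7*, *Ube2l6*, *Herc6*, and *Usp18*, which are 5 of the 54232 genes in the deposited files and 5 of the 11254 genes tested. All 6 libraries came from mice with EAE, a mouse model of multiple sclerosis in which immunization against myelin drives CNS inflammation, and every mouse received 30000 IU of IFN-β daily. The mice were mixed bone marrow chimeras: GFP+ recipients were lethally irradiated and given WT (CD45.1) and *Ifnar1*-/- (CD45.2) marrow in equal parts, 6 to 7 weeks before EAE induction. At the peak of disease, GFP-CD45+CD11b+Ly6ChiLy6G- monocytes were sorted from the CNS, with 3 WT and 3 *Ifnar1*-/- libraries numbered from 1 to 3. WT and *Ifnar1*-/- monocytes thus shared disease, treatment, and recipient type. They differed in the receptor and also in the CD45 variant of their donors, so that effects of receptor and donor strain cannot be told apart. No library came from untreated mice, and the ages of the mice are not given in the labels. The legend for the experiment gives 3 recipients, so a mouse may have given cells to a library of each genotype, and p-values measure only the spread between these libraries.

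ISG15 is a small protein made of a pair of ubiquitin-like domains, and it is attached to other proteins through a chain of enzymes like that of ubiquitin. UBA7 is the E1 enzyme that activates ISG15, UBE2L6 is the E2 enzyme that takes it over, and in the mouse HERC6 is the main E3 ligase that places it on target proteins. USP18 removes ISG15 from proteins and, apart from its protease activity, binds the IFNAR2 chain and limits signaling through the type I IFN receptor. Type I IFNs induce these genes through ISGF3, a complex with STAT2 and IRF9 that binds the interferon-stimulated response element (ISRE) in promoters.

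The promoter of *Isg15* is shown because its ISRE letters are the sequence through which this gene is classically induced. Promoter windows of 300 bases, from 250 bases before to 50 after the gene's RefSeq start, came from RefSeq (GRCm38.p6) and covered 4 of the 5 genes, all but *Usp18*. Of these, 1 window, that of *Isg15*, held the ISRE letters (GAAA, any 2 bases, and GAAA again) when both strands were searched. The sequence below is the 250 bases before the start of *Isg15*, on the minus strand at chr4:156200819-156201068, and its capitals mark 3 overlapping matches that begin 78, 72, and 66 bases before the start.
Isg15 promoter: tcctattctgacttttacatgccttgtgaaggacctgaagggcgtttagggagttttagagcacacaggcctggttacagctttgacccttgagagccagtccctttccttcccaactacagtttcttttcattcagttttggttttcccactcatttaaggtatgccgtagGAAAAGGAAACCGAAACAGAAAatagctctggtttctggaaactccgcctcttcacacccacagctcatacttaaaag

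Of 32851 RefSeq promoter windows of this length, 3.44% held the ISRE letters. With 1 mismatch allowed among the 8 fixed letters, a search chosen after the exact search had been seen, windows of *Uba7* and *Herc6* held matches as well, and so did 35.4% of all windows. The next sequences show such a match from each gene in capitals, both on the strand opposite to the gene, at chr9:107975530-107975559 for *Uba7* and at chr6:57580785-57580814 for *Herc6* (plus strand).
Uba7 window: ctcagtctagTTTCACTTTTggtttcctga
Herc6 window: atggagatacTTTCTTCTTCcctgtcttct
In *Uba7* the match began 27 bases before the RefSeq start, and in *Herc6* it began 197 bases before it. The RefSeq start of *Uba7* (107975567) lies 62 bases downstream of the GENCODE start given with its values, so this match lies inside the GENCODE gene. The window of *Ube2l6* held no match of either kind. The letters of the GAS element, TTCNNNGAA, were in none of the 4 windows and in 8.30% of all windows. These matches describe letters in short windows and are not evidence of binding.

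Library totals ranged from 4531782 to 7321380 expected counts, and a detection floor of 3 counts was worth 0.410 to 0.662 CPM, for counting error only. Every pathway gene was above this floor in every library and passed the filter on low counts. Monocyte identity was checked against 10 marker genes, all detected in all libraries, whose summed level was 8771 to 10610 normalized CPM (counts scaled to library size by TMM) in WT and 9203 to 10510 in *Ifnar1*-/- libraries. Of these, *Ly6c2*, a gene of the sorted Ly6C antigen with similar copies nearby, was called higher in WT (log2 fold change 1.40, SE 0.23, edgeR adjusted p = 0.00957). Of the 10 monocyte markers 3 had an unadjusted p under 0.05 and 3 were called by DESeq2, among them *Ccr2*, which was lower in every WT library (log2 fold change -0.62, SE 0.20, edgeR adjusted p = 0.143). *Fcgr1* also had an unadjusted p under 0.05 and was higher in every WT library (log2 fold change 0.71, SE 0.18, edgeR adjusted p = 0.0839). Summed T cell markers were 99.0 to 139 normalized CPM in WT and 49.3 to 56.1 in *Ifnar1*-/- libraries. Most of each sum came from *Il7r*, with 53.5 to 83.1 in WT and 34.2 to 47.6 in *Ifnar1*-/- libraries. All 8 of the 10 T cell markers that could be tested were higher in WT, 0 were called by the edgeR test described next, 8 had an unadjusted p under 0.05, and DESeq2 called 2. None of the 10 was at 0 in all libraries. Neutrophil markers varied widely within both groups, from 232 to 2221 normalized CPM in WT and from 699 to 2595 in *Ifnar1*-/- libraries. Summed markers of microglia (258 to 329 in WT, 296 to 376 in *Ifnar1*-/- libraries), pDCs (344 to 428 and 291 to 344), and NK cells (3.83 to 14.6 and 0.847 to 5.70 normalized CPM) had 1 called gene, *Bst2*. Summed B cell markers were 7.65 to 16.8 normalized CPM in WT and 3.82 to 9.20 in *Ifnar1*-/- libraries, and both of the B cell markers that could be tested were higher in WT, with 0 called by edgeR, DESeq2, or limma and 0 at an unadjusted p under 0.05. Of 8 B cell markers, 3 were at 0 in all libraries, *Pax5* and *Ebf1* among them. The part of such cells in the pathway results was not tested. *Ifnar1* itself had 111 to 153 normalized CPM in WT and 102 to 110 in *Ifnar1*-/- libraries (log2 fold change 0.28, SE 0.15, adjusted p = 0.360, edgeR), and whole-gene counts do not show which exons were read.

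All 5 genes of the pathway were upregulated in WT monocytes, from 2.13-fold for *Uba7* to 17.0-fold for *Usp18*. A gene was called upregulated at an adjusted p of at most 0.05 (edgeR quasi-likelihood test, Benjamini-Hochberg adjustment over the 11254 genes) and a fold change of at least 1.5. By that rule 1.67% of all tested genes were upregulated in WT, against 5 of 5 here. The WT libraries lay above all *Ifnar1*-/- libraries for each of the 5 genes, which was so for 11.1% of all tested genes. In bulk samples, fewer expressing cells and less RNA per cell cannot be told apart. For each gene the exact two-sided permutation test gave p = 0.1, and with 3 libraries per group no smaller p is possible.

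**Figure D1:**
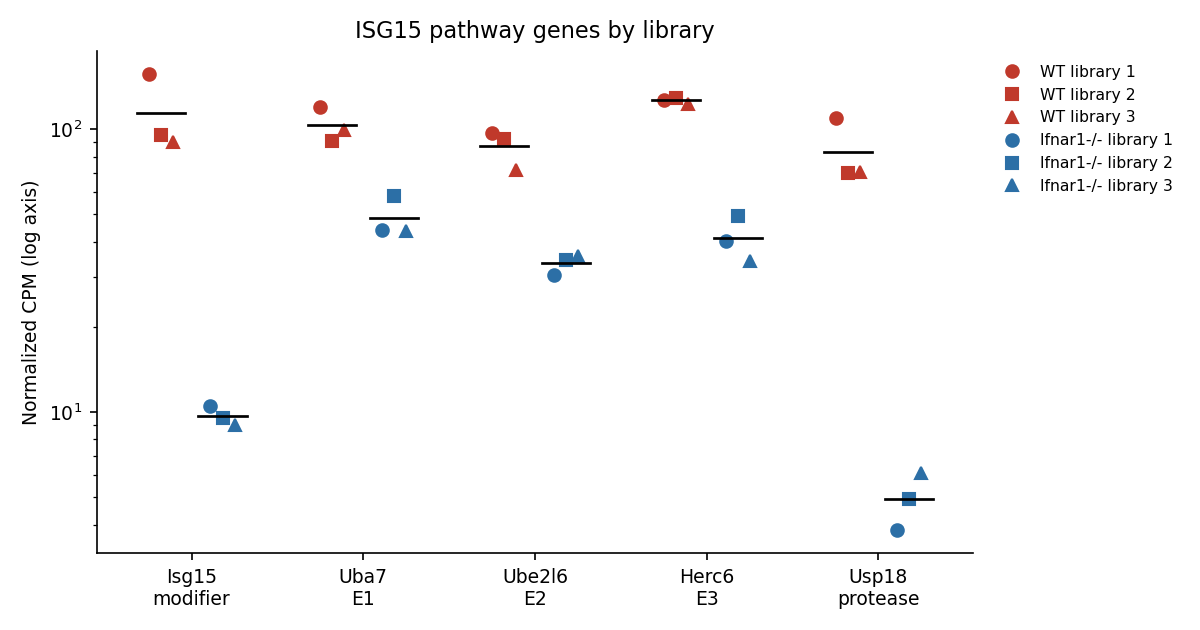
Normalized CPM (log scale) of the 5 pathway genes in each library, with 3 WT and 3 *Ifnar1*-/- libraries shown as points and the mean of each group as a bar. All WT points lie above all *Ifnar1*-/- points for every gene, with the widest gap for *Usp18* and *Isg15*.

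*Isg15* (ENSMUSG00000035692.6, chromosome 4, 156199424 to 156200818, minus strand), the gene of the modifier itself, measured 157, 95.6, and 90.4 normalized CPM in WT libraries 1, 2, and 3. In *Ifnar1*-/- libraries it had 10.5, 9.49, and 9.01. WT library 1 was the highest of all, the other two WT libraries were close to each other, and the *Ifnar1*-/- libraries were nearly level. Means were 114 ± 37.2 in WT and 9.68 ± 0.780 in *Ifnar1*-/- monocytes (SD, n = 3), an 11.8-fold difference. On the log2 scale it was 3.56 (SE 0.24, edgeR adjusted p = 1.96e-05).

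*Uba7* (ENSMUSG00000032596.14, chromosome 9, 107975505 to 107984060, plus strand), the E1 gene, had the smallest fold change of the 5 genes. WT libraries had 120, 90.5, and 99.5 normalized CPM, and *Ifnar1*-/- libraries had 44.1, 58.0, and 43.8. *Ifnar1*-/- library 2 came nearest to the WT libraries but stayed below all of them. WT exceeded *Ifnar1*-/- monocytes 2.13-fold (log2 fold change 1.09, SE 0.17, edgeR adjusted p = 0.00703). The call for *Uba7* was lost without *Ifnar1*-/- library 1 (log2 fold change 1.04, adjusted p = 0.0606) and without *Ifnar1*-/- library 3 (1.04, adjusted p = 0.0571), both with edgeR. It was also lost on the TPM scale, with limma on log2(TPM + 1), at an adjusted p = 0.155.

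*Ube2l6* (ENSMUSG00000027078.14, chromosome 2, 84798828 to 84810335, plus strand), the E2 gene, measured 97.0, 92.0, and 71.9 normalized CPM in the WT libraries. Its values in *Ifnar1*-/- libraries were 30.4, 34.6, and 35.7. The groups were separated by more than either spread, with WT library 3 the lowest of the WT libraries. Its log2 fold change came to 1.38 (SE 0.16, edgeR adjusted p = 0.000918).

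*Herc6* (ENSMUSG00000029798.11, chromosome 6, 57581000 to 57664632, plus strand), the E3 gene, was the most even member in WT monocytes. WT libraries had 127, 129, and 123 normalized CPM and *Ifnar1*-/- libraries 40.2, 49.3, and 34.2, with means of 126.4 ± 3.03 and 41.2 ± 7.61 (SD, n = 3). The difference was 3.06-fold (log2 fold change 1.62, SE 0.16, edgeR adjusted p = 0.000342). *Herc6* shares 45031 bases of its annotated range with *Gm45193* on the same strand, and its expected counts were not whole numbers in 6 of 6 libraries, which RSEM gives where it divides reads between features. *Gm45193* itself had 36.0 to 60.3 expected counts in WT and 12.1 to 19.6 in *Ifnar1*-/- libraries. *Uba7* likewise shares 1003 bases with *Gm20661* on the same strand, and its expected count was not a whole number in 1 library. *Gm20661* had 0 to 3.02 expected counts per library.

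*Usp18* (ENSMUSG00000030107.10, chromosome 6, 121245906 to 121270917, plus strand), the gene of the ISG15 protease, had the largest change of the pathway. WT libraries had 109, 69.9, and 70.3 normalized CPM, of which library 1 was again the highest. In *Ifnar1*-/- libraries it had 3.82, 4.91, and 6.07, from 25, 29, and 33 expected counts. This was a 17.0-fold difference, or 4.09 on the log2 scale (SE 0.25, edgeR adjusted p = 1.26e-05). Changes of at least 8-fold, as in *Isg15* and *Usp18*, were called upregulated in 0.355% of tested genes. *Usp18* overlaps *Gm44148* on the opposite strand, and that gene had 0 counts in all libraries.

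Fold changes were then compared between the genes of the pathway. The log2 ratio of 2 genes was computed within each library, and its difference between WT and *Ifnar1*-/- libraries was tested for all 10 pairs. The WT and *Ifnar1*-/- ratios did not overlap in 8 of the 10 pairs (exact two-sided permutation test, p = 0.1, adjusted p = 0.125 over 10 pairs). With 3 libraries per group no unadjusted p below 0.1 is possible. The pairs share genes and are not independent. How often ratios of other tested genes do not overlap was not computed, so this count has no background share beside it. The log2 fold change of *Isg15* exceeded that of *Uba7* by 2.37 (SE 0.22), that of *Ube2l6* by 2.10 (SE 0.23), and that of *Herc6* by 1.83 (SE 0.29). *Usp18* exceeded the 3 conjugating enzymes by wider margins, with a log2 difference of -2.85 (SE 0.24) for *Uba7* minus *Usp18*, -2.58 (SE 0.20) for *Ube2l6* minus *Usp18*, and -2.31 (SE 0.35) for *Herc6* minus *Usp18*. Between *Isg15* and *Usp18* the difference was small, at -0.48 (SE 0.24), and the nearest libraries of the groups had log2 ratios of 0.52 in WT and 0.53 in *Ifnar1*-/- monocytes. *Uba7* and *Herc6* differed by -0.54 (SE 0.14). Of the other two pairs, *Uba7* minus *Ube2l6* was -0.27 (SE 0.19, exact permutation test, p = 0.3) and *Ube2l6* minus *Herc6* was -0.27 (SE 0.21, exact permutation test, p = 0.5). With TPM ratios in place of CPM ratios, *Isg15* against *Usp18* and *Uba7* against *Herc6* overlapped as well.

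**Figure D2:**
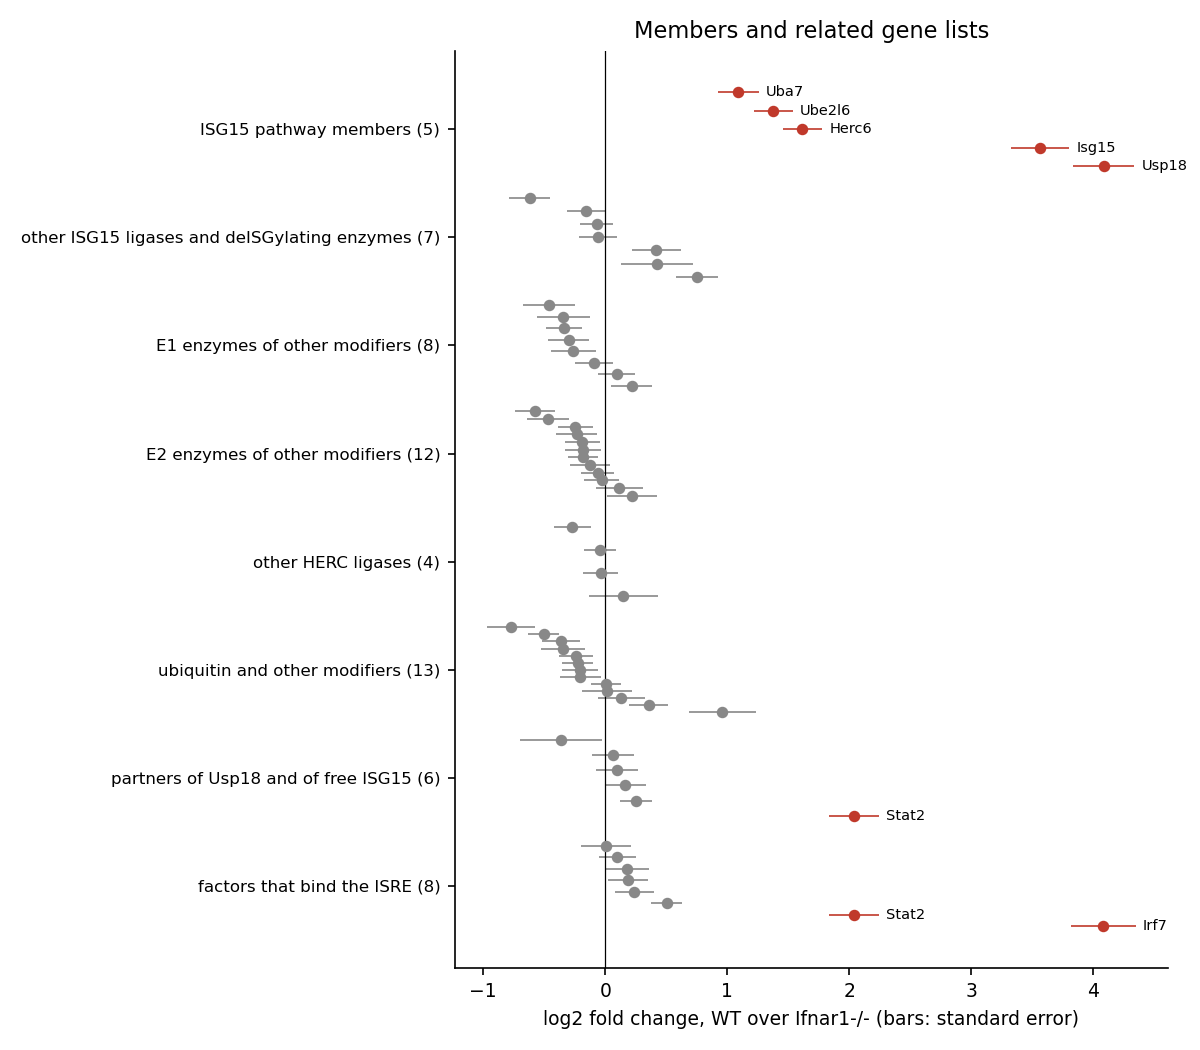
Log2 fold change of WT over *Ifnar1*-/- monocytes for the 5 pathway genes and for the tested genes of 7 related lists, with standard errors as bars and genes called at the adjusted p and fold thresholds in red. All 5 pathway genes are red and lie to the right of 1, and the only red points in the other lists are *Stat2*, in 2 lists, and *Irf7*.

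**Figure D3:**
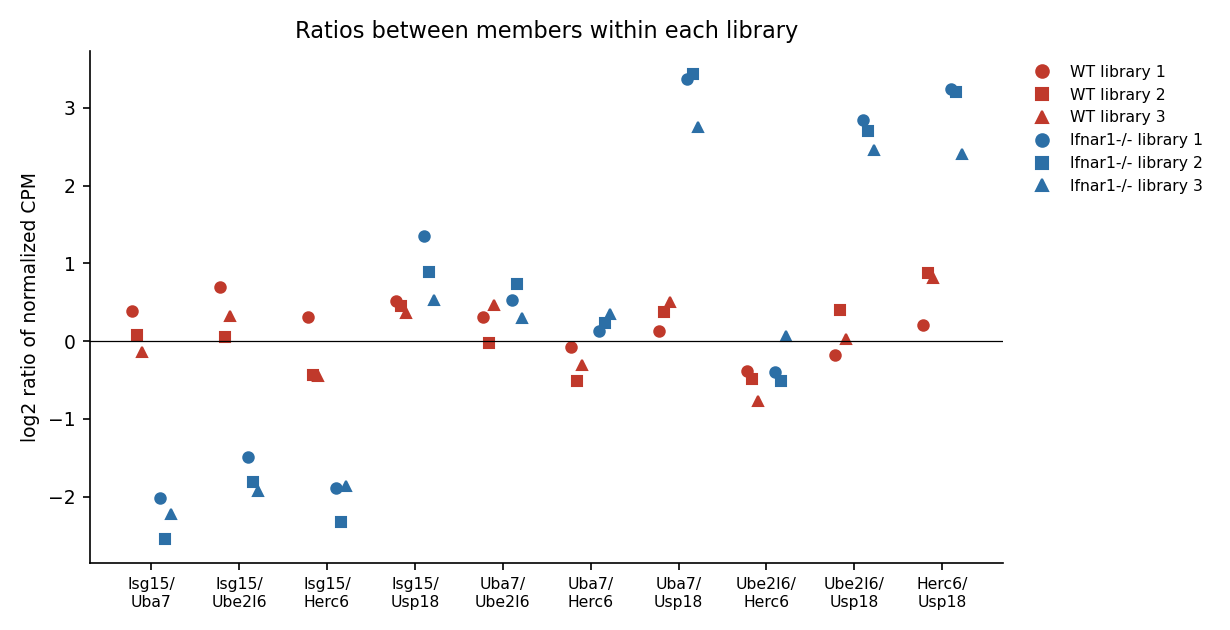
Log2 ratio of normalized CPM for all 10 pairs of pathway genes, with 1 point per library for 3 WT (red) and 3 *Ifnar1*-/- (blue) libraries. Red and blue points are far apart wherever *Isg15* or *Usp18* is set against a conjugating enzyme, lie close together for *Isg15* against *Usp18*, and overlap for *Uba7* against *Ube2l6* and *Ube2l6* against *Herc6*.

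Levels were compared between genes with the deposited TPM, which is scaled for transcript length. In WT monocytes *Isg15* was by far the highest, with 198, 176, and 168 TPM, above 96.4% to 97.7% of all genes with a TPM above 0. *Ube2l6* (58.8 ± 11.5 TPM, SD, n = 3), *Herc6* (58.7 ± 18.9), and *Usp18* (49.6 ± 1.69) followed, and neighbors in this order overlapped between libraries. *Uba7* had the lowest mean, 40.5 ± 4.62 TPM, and was below *Usp18* in every WT library. In WT library 1, however, *Herc6* (37.0 TPM) was lower than *Uba7* (45.7 TPM). In *Ifnar1*-/- monocytes the order was different: *Ube2l6* (22.8 ± 3.88), *Uba7* (19.4 ± 7.14), *Herc6* (16.4 ± 4.69), and *Isg15* (15.3 ± 1.64) overlapped with their neighbors. *Usp18* was lowest there, with 2.67, 3.52, and 3.54 TPM, and ranked above only 44.9% to 47.2% of detected genes.

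Ratios of TPM within a library set the modifier against its enzymes. The TPM ratio of *Isg15* to its E1 gene *Uba7* was 4.34, 4.52, and 4.55 in the WT libraries, against 1.13, 0.610, and 0.807 in those of *Ifnar1*-/- monocytes. *Isg15* transcripts thus exceeded those of *Uba7* in all WT libraries, and were below them in 2 of 3 *Ifnar1*-/- libraries. The ratio of *Isg15* to *Ube2l6* was 3.16 ± 0.751 in WT and 0.684 ± 0.124 in *Ifnar1*-/- monocytes (SD, n = 3). For *Isg15* against *Herc6* it was 3.44 ± 1.67 and 0.968 ± 0.170. By contrast, the ratio of *Isg15* to its protease gene *Usp18* was 3.64 ± 0.211 in WT and 4.83 ± 1.04 in *Ifnar1*-/- monocytes, and the libraries of the groups overlapped.

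Each pathway gene was then placed among genes that do the same step for ubiquitin or other modifiers. These related lists were tested in the same fit, and the median log2 fold change over all 11254 tested genes was -0.01. By the edgeR rule 2.13% of all tested genes were called in either direction. A short list without a called gene is therefore not set apart from other genes. The share of all genes at an unadjusted p under 0.05 is not given. *Uba7* had rank 2 of 9 E1 genes by TPM in all WT libraries, behind *Uba1*, the main ubiquitin E1 gene, and ranks 6, 3, and 3 in *Ifnar1*-/- libraries. None of the 8 other E1 genes was called by edgeR, DESeq2, or limma, with 1 at an unadjusted p under 0.05 and a median log2 fold change of -0.28. *Uba1* had 74.8 ± 8.25 TPM in WT and 74.0 ± 11.4 in *Ifnar1*-/- monocytes (SD, n = 3), and *Uba2*, of the SUMO E1, had 30.0 ± 9.90 and 38.1 ± 1.22.

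*Ube2l6* had rank 3 of 13 E2 genes in all WT libraries, and ranks 12, 12, and 10 in *Ifnar1*-/- libraries. Its closest relative *Ube2l3*, a ubiquitin E2 gene, had 44.7 ± 3.83 TPM in WT and 54.7 ± 11.0 in *Ifnar1*-/- monocytes (SD, n = 3). The TPM ratio of *Ube2l6* to *Ube2l3* was 1.31 ± 0.163 in WT and 0.420 ± 0.0496 in *Ifnar1*-/- monocytes, so *Ube2l6* exceeded its relative only in WT libraries. None of the 12 other E2 genes was called by edgeR, DESeq2, or limma, with 2 at an unadjusted p under 0.05 and a median log2 fold change of -0.18. *Ube2d3*, a ubiquitin E2 gene, was the most abundant of them, with 393 ± 128 TPM in WT against 405 ± 30.1 in *Ifnar1*-/- monocytes (SD, n = 3).

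By TPM, *Herc6* was the most abundant of 5 HERC genes in all WT libraries, with 36.6% to 40.6% of their summed TPM. In *Ifnar1*-/- libraries it took 12.4% to 17.6% and had ranks 4, 2, and 4, with *Herc4* at the top. The mean *Herc6* transcript length was 1961 to 2621 bases in WT, below the 4767 bases of its only protein-coding transcript. By these estimates its TPM includes transcripts that are not protein coding. Without scaling for length, WT means were 126 normalized CPM for *Herc6*, 136 for *Herc1*, and 125 for *Herc2*. None of *Herc1*, *Herc2*, *Herc3*, and *Herc4* was called by edgeR, DESeq2, or limma or had an unadjusted p under 0.05, and their median log2 fold change was -0.04. *Herc4* had 49.7 ± 14.7 TPM in WT and 55.8 ± 4.13 in *Ifnar1*-/- monocytes (SD, n = 3), and *Herc1* had 17.5 ± 5.01 and 17.3 ± 0.666.

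*Usp18* had rank 1 of 7 protease genes of the USP family, the others being listed for reported activity on ISG15, in all WT libraries, with 37.5% to 51.2% of their summed TPM. It had ranks 5, 6, and 5 in *Ifnar1*-/- libraries, with 3.95% to 5.08%. Of the 8 other genes for ISG15 ligases and proteases, 7 could be tested and 0 were called by edgeR, with 2 at an unadjusted p under 0.05, 1 called by DESeq2, and 0 by limma. *Trim25*, an E3 ligase for ISG15 and ubiquitin, was the gene that DESeq2 called. *Trim25* had 288, 195, and 223 normalized CPM in WT and 152, 124, and 145 in *Ifnar1*-/- libraries, so the groups did not overlap. Its log2 fold change of 0.75 (SE 0.17) had an adjusted p = 0.0610 with edgeR and 0.00301 with DESeq2. *Arih1*, another ISG15 ligase gene, had 42.0 ± 10.0 TPM in WT and 48.9 ± 5.46 in *Ifnar1*-/- monocytes (SD, n = 3). *Usp14* stood at -0.62 on the log2 scale (SE 0.17, edgeR adjusted p = 0.0940), and *Usp13* was at 0 counts in all libraries.

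Among 15 genes for ubiquitin-like modifiers, *Isg15* had rank 6 in all WT libraries and rank 12 in all *Ifnar1*-/- libraries, with 2.34% to 4.49% of their summed TPM in WT and 0.218% to 0.261% in *Ifnar1*-/- libraries. Of the 13 other modifier genes that could be tested, 0 were called by edgeR and by limma, 2 were called by DESeq2, and 4 had an unadjusted p under 0.05, with a median log2 fold change of -0.21. *Rps27a*, a fusion of ubiquitin with a ribosomal protein, was called by DESeq2 (log2 fold change -0.77, SE 0.20, edgeR adjusted p = 0.0823). *Fau*, which encodes a ubiquitin-like protein fused to a ribosomal protein, had 1968 ± 709 TPM in WT against 2257 ± 25.8 in *Ifnar1*-/- monocytes (SD, n = 3).

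**Figure D4:**
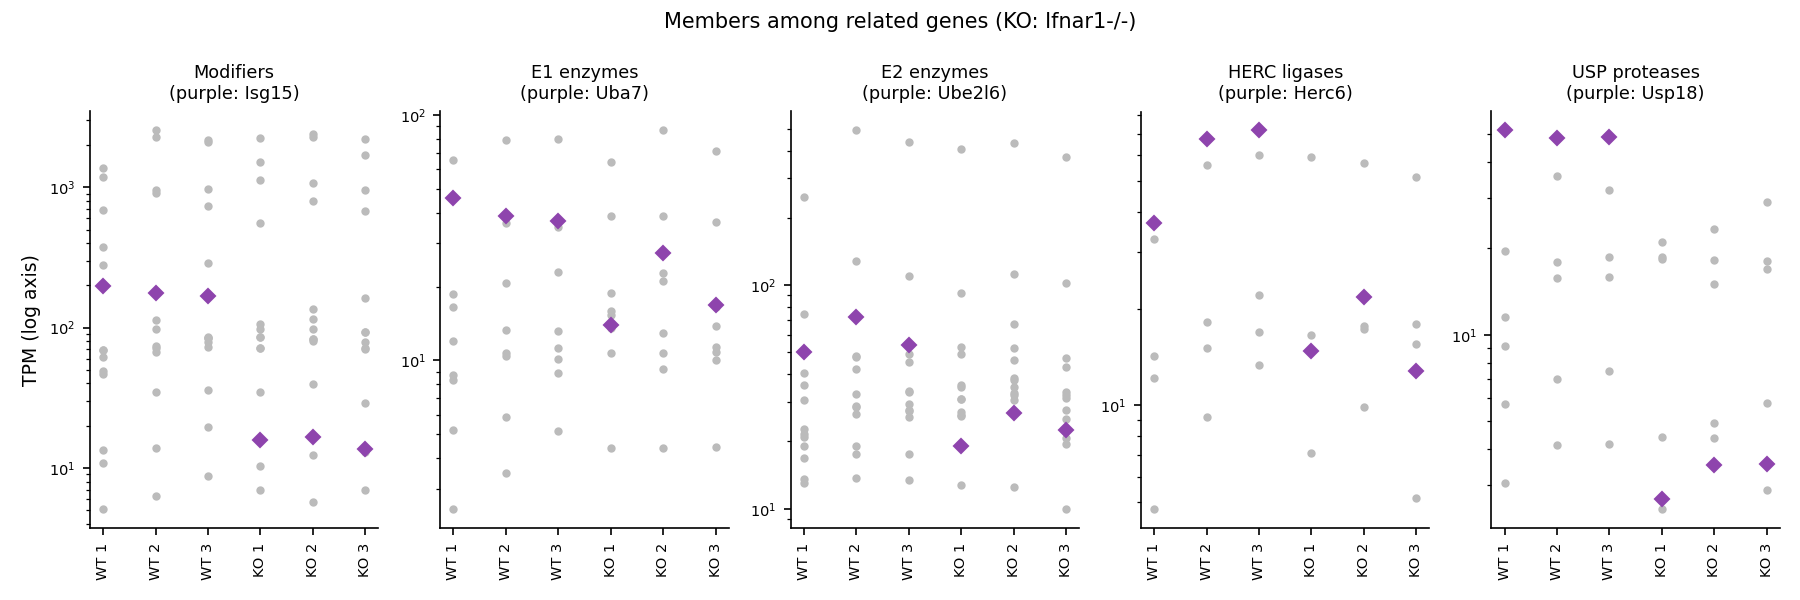
TPM (log scale) of *Isg15*, *Uba7*, *Ube2l6*, *Herc6*, and *Usp18* (purple diamonds) and of the related genes of each list (gray points, genes above 0.1 TPM in every library) in the 6 libraries. The panel of *Usp18* holds USP proteases alone, without the ligases of its list. *Herc6* and *Usp18* are the top points of their panels in all WT libraries and lie below others in all *Ifnar1*-/- libraries.

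Genes upstream of the pathway and its partners were examined next. Of 8 factors that bind the ISRE, 2 were upregulated, *Irf7* and *Stat2*. *Irf7*, a transcription factor gene of the type I IFN response, had 272 ± 29.4 TPM in WT and 17.9 ± 3.77 in *Ifnar1*-/- monocytes (SD, n = 3), and its log2 fold change, 4.08 (SE 0.26, edgeR adjusted p = 1.64e-05), was near that of *Usp18*. *Stat2*, which encodes a subunit of ISGF3 and a binding partner of USP18, had 189, 123, and 139 normalized CPM in WT against 30.9, 44.1, and 35.3 in *Ifnar1*-/- libraries. It changed by 2.04 on the log2 scale (SE 0.20, edgeR adjusted p = 0.000347), between those of *Herc6* and *Isg15*. *Irf9*, the gene of another ISGF3 subunit, did not pass the thresholds, at 0.50 on the log2 scale (SE 0.13, edgeR adjusted p = 0.0842). *Irf1*, among the most abundant of the 8, had 172 ± 68.8 TPM in WT and 183 ± 29.2 in *Ifnar1*-/- monocytes (SD, n = 3). Of 6 partners of USP18 and of free ISG15, *Stat2* alone was called. *Itgb2*, which with *Itgal* encodes the integrin that secreted ISG15 binds on lymphocytes, had 483 ± 74.0 TPM in WT and 424 ± 98.3 in *Ifnar1*-/- monocytes (SD, n = 3), and *Ifnar2*, to which USP18 binds, stood at 0.25 on the log2 scale (SE 0.13, edgeR adjusted p = 0.342).

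The deposited files also give, for each gene, a length averaged over its transcripts by their estimated abundance, which was not used in choosing the genes. *Isg15* has 1 annotated transcript, and its length was 756 bases in every library. *Herc6* has 6 annotated transcripts of 449 to 4767 bases, 1 of them protein coding, and its mean length was 2621, 2166, and 1961 bases in WT and 2548, 2476, and 2528 bases in *Ifnar1*-/- libraries. WT library 1 had the longest *Herc6* estimate and also the lowest *Herc6* TPM of the WT libraries (37.0, against 67.3 and 71.8), although its normalized CPM was level with theirs. *Uba7*, with 15 transcripts of which 1 is protein coding, ranged from 2053 to 2965 bases in WT and from 2311 to 2938 in *Ifnar1*-/- libraries. *Ube2l6* ranged from 1509 to 1560 bases in WT and from 1484 to 1560 in *Ifnar1*-/- libraries. *Usp18* had 1700, 1681, and 1675 bases in WT and 1416, 1591, and 1676 in *Ifnar1*-/- libraries, where the estimate rests on 25 to 33 counts. The groups overlapped in each of these lengths, and *Isg15* had the same length throughout.

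**Figure D5:**
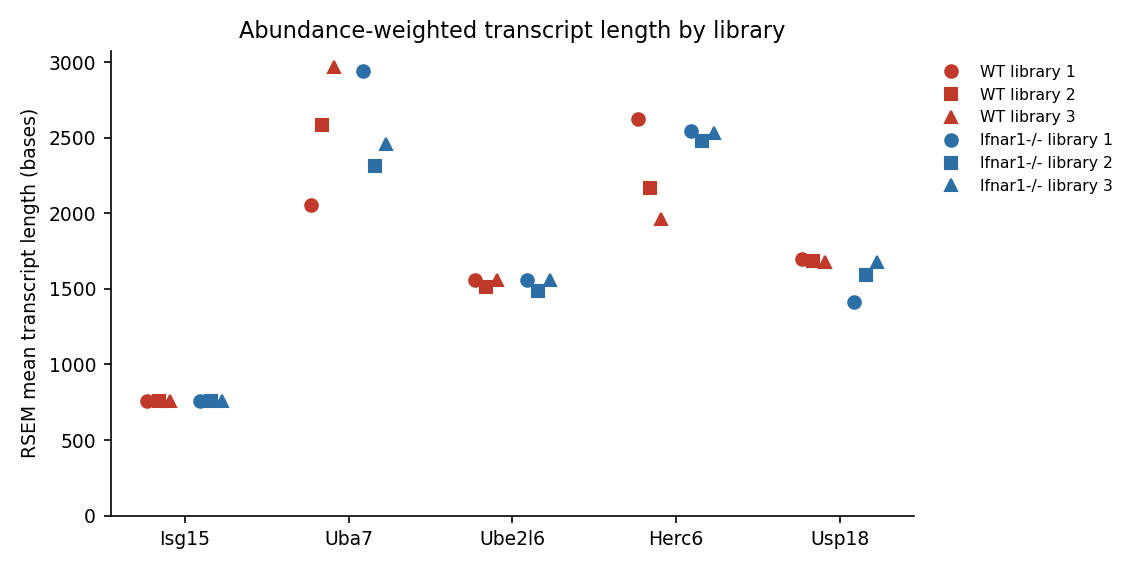
Abundance-weighted transcript length (bases) of the 5 pathway genes in each library, as deposited. WT and *Ifnar1*-/- libraries overlap for every gene, and *Isg15* stays at 756 bases.

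The genes whose pattern over the 6 libraries was most like that of each pathway gene were found by Pearson's r of log2 normalized CPM. All such values share the same 6 libraries of 2 genotypes, so they are given as descriptions, and *Ifit3*, *Trim34a*, *Ifi211*, and *Phf11b* belong to families with similar copies among which reads could have been divided. *Isg15* was most like *Ifit3* (r = 0.999) and *Gm6545* (r = 0.998), and *Usp18* most like *Trim34a* (r = 0.999) and *Irf7* (r = 0.998). *Uba7* was nearest to *Ifi211* (r = 0.998) and *Phf11b* (r = 0.996), and *Ube2l6* to *Trex1* (r = 0.997) and *Parp11* (r = 0.997). *Herc6* was nearest to *Clec2d* (r = 0.996) and *Sntb2* (r = 0.993), of which *Sntb2* was not called (log2 fold change 0.31, SE 0.13, edgeR adjusted p = 0.240). Between the pathway genes r ranged from 0.949, for *Uba7* and *Ube2l6*, to 0.992, for *Isg15* and *Usp18*.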

How the data were processed

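RNA-seq libraries of sorted CNS monocytes were grouped by genotype as the labels give it. The authors mapped reads to GRCm38 and ran RSEM 1.2.31 with STAR 2.6.0c, as named in the submitters' processing notes, and deposited for each gene an expected count (not normalized), TPM, and FPKM. The labels and the study's methods name different library kits, and whether counting used strand is not stated, so reads of overlapping genes cannot be assigned by strand. FPKM deposited by the authors was not used.

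Gene identifiers were matched to GENCODE M21 (54165 of 54232 matched, 67 did not). Expected counts were rounded and compared with edgeR 4.0.16 (R 4.3.3; TMM, filterByExpr with a minimum count of 10, quasi-likelihood test, no block), and genes were called by the study's thresholds, 0.05 for the adjusted p and 1.5 for the fold change. Fold changes are WT over *Ifnar1*-/-. Exact permutation tests were two-sided on log2(normalized CPM + 0.5). The script was tested on simulated data. Deposited TPM values were used for levels and ratios between genes. Alternatives were DESeq2 1.42.0, limma 3.58.1 (voom, and log2(TPM + 1)), RLE normalization, other filters, removal of mitochondrial and ribosomal RNA genes, GC and length offsets, the replicate number as a block, and leaving out each library.

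The genes named are the pathway genes, genes of the related lists that were called, the 2 most abundant genes of each list, the 2 genes most like each pathway gene, and marker genes. *Usp13*, *Usp14*, *Ube2l3*, *Rps27a*, *Herc2*, *Herc3*, *Irf9*, and *Itgal*, and genes that overlap *Uba7*, *Herc6*, and *Usp18*, were added to these with their values known. The pathway genes and lists were chosen with earlier results of these data known. Some genes that this rule would name are left out of the text.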

Additional observations from a re-analysis of the deposited data

How the results depend on the processing

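All 5 pathway genes were called and higher in WT with DESeq2, limma-voom, RLE normalization, both other filters, removal of mitochondrial and ribosomal RNA genes, and GC and length offsets. *Uba7* lost its call in 3 of 17 alternatives, as given above. The log2 fold change ranged over all of them from 3.27 to 3.73 for *Isg15*, 0.87 to 1.25 for *Uba7*, 1.29 to 1.52 for *Ube2l6*, 1.51 to 1.78 for *Herc6*, and 3.58 to 4.27 for *Usp18*. Of all tested genes 240 were called, against 419 with DESeq2, 126 with limma on log2(TPM + 1), 872 with no filter on low counts, and 119 to 245 leaving out 1 library. The causes were not tested. Allowing 1 mismatch moved the number of promoters with ISRE letters from 1 to 3. With mitochondrial and ribosomal RNA genes taken out of the TPM, *Isg15* was at 213 in WT and 19.1 in *Ifnar1*-/- monocytes.

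Same-numbered libraries deviated from their group means with correlations of 0.0872, 0.0265, and 0.289, and WT library 1 correlated more with *Ifnar1*-/- library 2 (0.101). The highest of all values was that of the libraries numbered 3, and these values do not settle whether the numbers pair the libraries. A fit with the replicate block called 220 genes, all 5 pathway genes among them, with log2 fold changes of 3.53 for *Isg15*, 1.09 for *Uba7*, 1.37 for *Ube2l6*, 1.63 for *Herc6*, and 4.06 for *Usp18*, and *Trim25* was called as well (adjusted p = 0.0453, edgeR). Depth limits mostly *Usp18* in *Ifnar1*-/- libraries, which rested on 25 to 33 counts.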
